A study of Mus musculus with 6 samples.

Results

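Blood and lymphatic vessels of fat were followed through 10 genes. The blood set held Pecam1, Cdh5, Kdr, Plvap and Erg, and the lymphatic set held Prox1, Lyve1, Reln, Mmrn1 and Flt4, 5 genes each. Pecam1, Cdh5 and Erg are pan-endothelial, so the blood set can also hold RNA of lymphatic vessels. The 10 genes were taken by symbol from a deposited table of 54532 genes, in which each symbol names 1 row. All 10 were among the 16623 genes with enough counts to be tested. The tissue was the inguinal white fat pad, a subcutaneous depot, read by bulk RNA sequencing of 3 control and 3 Cdo1AKO samples. The control mice carried a floxed Cdo1 gene and are named WT in the genotype field of the labels. The Cdo1AKO mice had Cdo1, the gene of cysteine dioxygenase, knocked out in adipose tissue. Both groups were put on a high-fat diet at 8 weeks of age and kept on it for 15 weeks. The driver of the deletion, the exons removed and the sex of the mice are not given in the sources used here.

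Blood vessels in fat are lined by endothelial cells that adhere through cadherin junctions and respond to vascular endothelial growth factor (VEGF), much of it made by adipocytes. Lymphatic vessels arise from veins when endothelial cells switch on the transcription factor Prox1, and they grow in response to VEGF-C and VEGF-D through the receptor encoded by Flt4. The inguinal depot encloses a lymph node, which has lymphatic sinuses and specialised venules of its own, so vessel RNA in a piece of this depot can come from fat or from node.

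The libraries held 16275184 to 19205804 counts, and their normalization factors by the trimmed mean of M values (TMM) ran from 0.861 to 1.12. Levels are given in CPM, the count scaled to a common TMM-adjusted library size. Cdo1 ranged from 432 to 887 CPM among controls, against 123, 392 and 134 CPM for Cdo1AKO 1 to 3, so that the library labelled Cdo1AKO 2 lay close to the lowest control. Ms4a1, a B cell surface protein that serves here as the measure of lymph node content, was read 1, 2679 and 1536 times in control 1 to 3, and 1517, 14 and 1526 times among the Cdo1AKO libraries in the same order. The summed level of 10 B cell genes ran from 2.09 to 1210 CPM in the controls and from 7.59 to 830 CPM in Cdo1AKO, and 2 of the 10, Pax5 and Cxcr5 (named here because of it), were at 0 in control 1. Control 1 and Cdo1AKO 2 are therefore called the libraries low in Ms4a1, and the other 4 the libraries with Ms4a1 (above 5 CPM). Between the libraries low in Ms4a1, Cdo1 was at 887 CPM in control 1 and 392 CPM in Cdo1AKO 2. The control with the lowest Cdo1, control 2, had the most Ms4a1. Of 4 skeletal muscle markers, Myh4 was at 0 in every library, Ckm was at 0 in all but Cdo1AKO 2 (1.09 CPM), Mylpf had 1.17 to 8.12 CPM, and Acta1 had 40.7 to 189 CPM.

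Promoter sequence was on hand for 6 of the 10 genes, in 9 RefSeq entries of build GRCm38.p6. Each entry runs from 250 bases before to 50 bases after a transcription start. Shown are the 250 bases before the start of Prox1 and Mmrn1, the pair whose levels followed each other, of Reln, which was lower in every Cdo1AKO library, and of Erg, itself a transcription factor of the ETS family, at the most downstream of its 3 entries. They are written 5′ to 3′ on the strand of the gene. Capitals mark AGGAAG, an ETS core with its flanks, read as CTTCCT on the opposite strand, and CACGTG, an E-box used for comparison; a site of one motif cannot overlap a site of the other, while AGGAAG sites can overlap among themselves.
Prox1, chr1:190170828-190171077, minus strand: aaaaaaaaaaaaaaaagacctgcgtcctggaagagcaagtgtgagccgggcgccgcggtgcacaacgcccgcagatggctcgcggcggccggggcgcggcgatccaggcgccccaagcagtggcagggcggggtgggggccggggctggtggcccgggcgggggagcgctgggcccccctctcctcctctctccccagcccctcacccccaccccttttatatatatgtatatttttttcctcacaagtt
Mmrn1, chr6:60944067-60944316, plus strand: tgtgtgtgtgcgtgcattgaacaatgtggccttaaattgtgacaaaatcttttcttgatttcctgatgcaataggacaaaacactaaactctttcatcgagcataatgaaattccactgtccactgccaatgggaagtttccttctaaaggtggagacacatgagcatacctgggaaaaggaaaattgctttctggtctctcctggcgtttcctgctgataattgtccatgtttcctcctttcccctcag
Reln, chr5:22344706-22344955, minus strand: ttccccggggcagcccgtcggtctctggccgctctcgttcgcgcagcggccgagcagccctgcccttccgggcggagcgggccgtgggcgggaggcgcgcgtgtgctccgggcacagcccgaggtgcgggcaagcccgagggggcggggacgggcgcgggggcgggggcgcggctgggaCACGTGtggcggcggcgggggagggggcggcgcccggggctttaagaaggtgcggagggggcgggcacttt
Erg, chr16:95459349-95459598, minus strand: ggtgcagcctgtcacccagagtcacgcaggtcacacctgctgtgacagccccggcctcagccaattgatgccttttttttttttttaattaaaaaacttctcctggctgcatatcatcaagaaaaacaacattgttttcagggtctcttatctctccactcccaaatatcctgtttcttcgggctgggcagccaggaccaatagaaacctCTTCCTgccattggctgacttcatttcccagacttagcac
AGGAAG was found on either strand in 1 of the 9 entries, that of Erg shown here, and in 35.4% of all 32851 promoter entries of the same length of 300 bases. CACGTG was found in 1 of the 9, that of Reln, and in 7.15% of all entries. The stretches before Prox1 and Mmrn1 held neither motif, and they differed in base composition, with 64.8% G and C before Prox1 and 42.4% before Mmrn1. The Prox1 start lies 113 bases upstream of the gene's start in the table. The Mmrn1 start lies 19341 bases and this Erg start 127245 bases downstream of the gene's start in the table, inside the gene. These matches describe letters, and binding was not measured.

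Blood vessel genes were the more abundant set. Per kilobase of gene length and averaged over the 6 libraries, the level was 66.2 ± 26.7 CPM per kb for Cdh5, 48.5 ± 14.9 for Pecam1, 46.5 ± 9.34 for Plvap, 16.7 ± 5.26 for Kdr and 11.9 ± 4.70 for Erg (SD, n = 6). The lymphatic genes followed at 5.93 ± 0.899 CPM per kb for Lyve1, 2.06 ± 0.613 for Flt4, 0.274 ± 0.207 for Mmrn1, 0.212 ± 0.152 for Prox1 and 0.118 ± 0.0496 for Reln (SD, n = 6). In this order the ranges over libraries overlapped between Cdh5 and Pecam1, Pecam1 and Plvap, Kdr and Erg, Mmrn1 and Prox1, and Prox1 and Reln. They did not overlap between Plvap and Kdr, Erg and Lyve1, Lyve1 and Flt4, or Flt4 and Mmrn1. All 5 genes of each set were thus detected in every library, with Prox1 and Mmrn1 down to 3 counts in single libraries.

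None of the 10 genes passed edgeR's quasi-likelihood test between the groups, with Benjamini-Hochberg adjustment over all tested genes. In this fit 0 of 16623 genes passed (0%). Not even Cdo1 was called, so a lack of calls does not show unchanged levels. The smallest adjusted p among the 10 was 0.384, for Plvap. At an unadjusted p under 0.05 by edgeR stood 1724 genes, 3 of the 10 among them (Plvap, Lyve1 and Reln), while DESeq2 called 271 genes (1.48% of 18284 with an adjusted p) and none of the 10. With a term for high or low Ms4a1 in the model, edgeR called 4.13% of genes and 0 of the 10. Between the 4 libraries with Ms4a1, 2 in each group, edgeR called 15.3% of 17049 genes, and again 0 of the 10.

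The same 3 genes separated the groups without overlap: Plvap was higher in every Cdo1AKO library than in every control library, and Lyve1 and Reln were lower. Over all tested genes 8.87% lay wholly above and 9.73% wholly below the controls in this way, 18.6% in either direction, so 3 of 10 is read against that background. With library totals in place of TMM factors, Pecam1 and Erg separated as well, giving 5 of 10, against 19.7% of all genes. In bulk tissue, fewer cells of a type and less RNA per cell cannot be told apart.

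**Figure D1:**
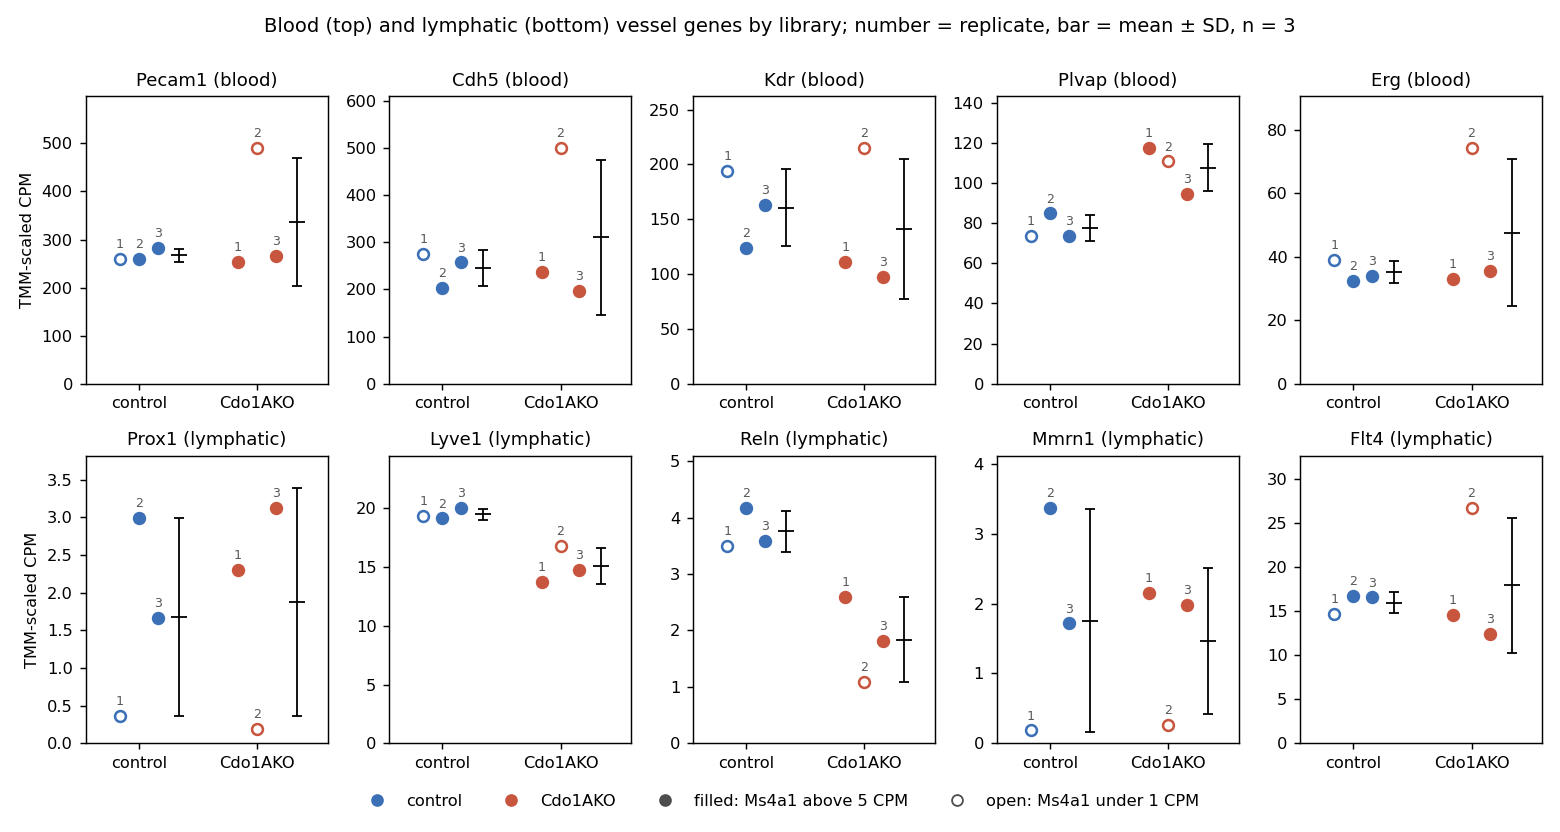
Level of each vessel gene by library, on a linear axis in TMM-scaled CPM, with blood genes in the top row and lymphatic genes in the bottom row. Points are libraries numbered by replicate, open where Ms4a1 was low, and bars are the mean ± SD of 3 libraries. Cdo1AKO 2 is highest for Pecam1, Cdh5, Kdr, Erg and Flt4, and both open points are lowest for Prox1 and Mmrn1.

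The junction proteins showed 1 high library. Pecam1 (ENSMUSG00000020717, mm10 chr11:106654217-106750628, minus strand) encodes CD31, an adhesion molecule of endothelial borders. Controls 1 to 3 had 260, 260 and 282 CPM, and Cdo1AKO 1 to 3 had 254, 490 and 266 CPM. Apart from Cdo1AKO 2, the 5 values lay within a narrow band in which the groups overlapped. The log2 fold change of Cdo1AKO over control was 0.33 ± 0.29 (SE, adjusted p = 0.708 by edgeR), and it was -0.040 without Cdo1AKO 2. Leaving out Cdo1AKO 2 kept control 1 as the only library low in Ms4a1. Here and below, values without Cdo1AKO 2 therefore cannot tell group from lymph node content. In that setting the median log2 fold change of the B cell genes went from -0.13 to 0.44.

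Cdh5 (ENSMUSG00000031871, chr8:104101625-104144511, plus strand) encodes VE-cadherin, the cadherin of endothelial junctions. It had 275, 204 and 257 CPM in the controls and 236, 499 and 197 CPM in Cdo1AKO. Cdo1AKO 2 again stood highest, and the lowest value was also a Cdo1AKO library. Its fold change, again on the log2 scale as all that follow, was 0.34 ± 0.38 (SE, adjusted p = 0.770 by edgeR), and -0.18 without Cdo1AKO 2.

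Kdr (ENSMUSG00000062960, chr5:75932827-75978458, minus strand) encodes VEGF receptor 2, the main signalling receptor for VEGF-A on blood endothelium. It had 194, 124 and 163 CPM in the controls and 111, 215 and 97.2 CPM in Cdo1AKO. In each group the library low in Ms4a1 was the highest. Kdr had a log2 fold change of -0.19 ± 0.35 (SE, adjusted p = 0.868 by edgeR). It was -0.62 without Cdo1AKO 2 and 0.026 without Cdo1AKO 3. Between the 4 libraries with Ms4a1 both Cdo1AKO values lay below both control values, at -0.46 ± 0.15 (SE, adjusted p = 0.0832 by edgeR), where 62.0% of all genes separated in one direction or the other.

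Plvap (ENSMUSG00000034845, chr8:71497765-71511752, minus strand) encodes the protein of the diaphragms that close fenestrae and caveolae in capillaries and venules. It had 73.5, 84.8 and 73.7 CPM in the controls and 117, 111 and 94.6 CPM in Cdo1AKO, a mean of 77.4 ± 6.49 against 108 ± 11.7 CPM (SD, n = 3). The groups did not overlap, and the libraries low in Ms4a1 fell within the others' range or at its edge in both groups. For Plvap the log2 fold change was 0.48 ± 0.15 (SE), with an unadjusted p of 0.0160 and an adjusted p = 0.384 by edgeR. It was 0.48 ± 0.14 with the Ms4a1 term (SE, adjusted p = 0.102 by edgeR) and 0.41 ± 0.14 between libraries with Ms4a1 (SE, adjusted p = 0.0858 by edgeR). The authors' deposited table gives Plvap an adjusted p of 0.288. In its course over libraries Plvap stood 0.33 to 0.55 from the other 4 blood genes, by the root mean square difference of log2 CPM centred on each gene's mean.

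Erg (ENSMUSG00000040732, chr16:95359169-95586593, minus strand) encodes an ETS transcription factor of endothelial identity. The most downstream of its promoter entries, the only one of them with AGGAAG, is shown above. It had 39.1, 32.4 and 34.0 CPM in the controls and 33.0, 74.2 and 35.5 CPM in Cdo1AKO. Cdo1AKO 2 was again the highest, and the other 2 libraries of its group overlapped the controls. Erg had a log2 fold change of 0.44 ± 0.33 (SE, adjusted p = 0.686 by edgeR), and -0.037 without Cdo1AKO 2. As a share of Cdh5, both per length, Erg ran from 16.1% to 21.8% over all 6 libraries, and Cdo1AKO 2 was at 18.0%, inside that range. Plvap as a share of Cdh5 was 56.5%, 88.2% and 60.7% in the controls and 105%, 46.9% and 101% in Cdo1AKO, so these groups overlapped.

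Among the lymphatic genes, Prox1 and Mmrn1 were low in both libraries low in Ms4a1, 1 of each group. Prox1 (ENSMUSG00000010175, chr1:190118035-190170714, minus strand) encodes the homeobox factor that sets and keeps lymphatic identity. Counts were 6, 56 and 31 among the controls and 46, 3 and 57 among Cdo1AKO, or 0.368, 3.0 and 1.66 CPM against 2.30, 0.193 and 3.13 CPM. The exact 95% Poisson intervals were 2.20 to 13.1 counts in control 1 and 0.619 to 8.77 counts in Cdo1AKO 2, both below the 21.1 counts that bound control 3 from below; they cover counting error only. The mean of the 4 libraries with Ms4a1 was 8.99 times that of the 2 others, and the groups overlapped. Prox1 had a log2 fold change of 0.16 ± 1.01 (SE, adjusted p = 0.964 by edgeR), and leaving out single libraries moved it between -0.41 and 0.87. With the Ms4a1 term it was 0.05 ± 0.41 (SE, adjusted p = 0.958 by edgeR). Prox1 shares 133 exon bases with the antisense gene Prox1os, and whether reads there were counted by strand is not stated in the sources used here.

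Mmrn1 (ENSMUSG00000054641, chr6:60924976-60989378, plus strand) encodes multimerin 1, a secreted protein of platelets and endothelium that marks collecting and sinus lymphatics. It had 3, 63 and 32 counts in the controls and 43, 4 and 36 counts in Cdo1AKO, or 0.184, 3.37 and 1.72 CPM against 2.15, 0.257 and 1.98 CPM. The same 2 libraries were low as for Prox1, and the mean of the 4 libraries with Ms4a1 was 10.4 times theirs. Mmrn1 had a log2 fold change of -0.26 ± 1.05 (SE, adjusted p = 0.944 by edgeR), with values from -0.79 to 0.61 when single libraries were left out. With the Ms4a1 term it was -0.20 ± 0.40 (SE, adjusted p = 0.809 by edgeR). The root mean square difference between the courses of Prox1 and Mmrn1 was 0.38, and each stood 1.2 to 1.75 from every other of the 10 genes.

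Reln (ENSMUSG00000042453, chr5:21884454-22344702, minus strand) encodes reelin, a secreted glycoprotein made by collecting lymphatic endothelium as well as by neurons. It had 57, 78 and 67 counts in the controls and 52, 17 and 33 counts in Cdo1AKO, or 3.50, 4.17 and 3.59 CPM against 2.60, 1.09 and 1.81 CPM. The means were 3.75 ± 0.366 and 1.83 ± 0.753 CPM (SD, n = 3), and all 3 Cdo1AKO libraries lay below the lowest control. Control 1, low in Ms4a1, was close to control 3, while Cdo1AKO 2 was the lowest of all libraries. For Reln the log2 fold change was -1.03 ± 0.37 (SE), with an unadjusted p of 0.0311 and an adjusted p = 0.433 by edgeR, and -0.76 without Cdo1AKO 2. It was -1.07 ± 0.31 with the Ms4a1 term (SE, adjusted p = 0.105 by edgeR) and -0.81 ± 0.30 between libraries with Ms4a1 (SE, adjusted p = 0.111 by edgeR). Reln shares 246 exon bases with the antisense gene Gm10475.

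Lyve1 (ENSMUSG00000030787, chr7:110850607-110863239, minus strand) encodes a hyaluronan receptor of lymphatic capillaries that some tissue macrophages carry as well. It had 19.3, 19.2 and 20.1 CPM in the controls and 13.7, 16.8 and 14.8 CPM in Cdo1AKO, a mean of 19.5 ± 0.478 against 15.1 ± 1.55 CPM (SD, n = 3). The groups did not overlap, and control 1 did not stand apart from control 2 and 3. For Lyve1 the log2 fold change was -0.37 ± 0.15 (SE), with an unadjusted p of 0.0495 and an adjusted p = 0.480 by edgeR. It was -0.37 ± 0.14 with the Ms4a1 term (SE, adjusted p = 0.178 by edgeR) and -0.46 ± 0.14 between libraries with Ms4a1 (SE, adjusted p = 0.0625 by edgeR). Macrophage transcripts did not take the course of Lyve1: of 8 genes of resident macrophages, all had a positive fold change and none passed, with a median of 0.52, or 0.13 without Cdo1AKO 2, and their summed level was 130 to 248 CPM in the controls and 197 to 321 CPM in Cdo1AKO. The scavenger receptor Cd163 had 82.4, 23.0 and 48.5 CPM in the controls and 48.9, 78.4 and 52.1 CPM in Cdo1AKO, and the mannose receptor Mrc1 had 55.0, 28.3 and 42.4 CPM against 38.3, 69.5 and 43.4 CPM. The part of macrophages in the Lyve1 values was not tested.

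Flt4 (ENSMUSG00000020357, chr11:49609263-49652739, plus strand) encodes VEGF receptor 3, which lymphatic endothelium carries and fenestrated or sprouting blood endothelium also uses. It had 14.7, 16.7 and 16.6 CPM in the controls and 14.6, 26.8 and 12.5 CPM in Cdo1AKO. The high value belonged to Cdo1AKO 2, as for 4 of the 5 blood genes and unlike Prox1 and Mmrn1. Flt4 had a log2 fold change of 0.16 ± 0.31 (SE, adjusted p = 0.870 by edgeR), -0.24 without Cdo1AKO 2 and -0.30 ± 0.15 between libraries with Ms4a1 (SE, adjusted p = 0.221 by edgeR). Per length, Flt4 was 8.27%, 14.8% and 11.2% of Kdr in the controls and 14.4%, 13.7% and 14.1% of Kdr in Cdo1AKO, with overlap between the groups. By root mean square difference Flt4 was 0.14 from Pecam1 and 0.21 from Cdh5, nearer than to any other lymphatic gene, of which Lyve1 was the nearest at 0.36.

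**Figure D2:**
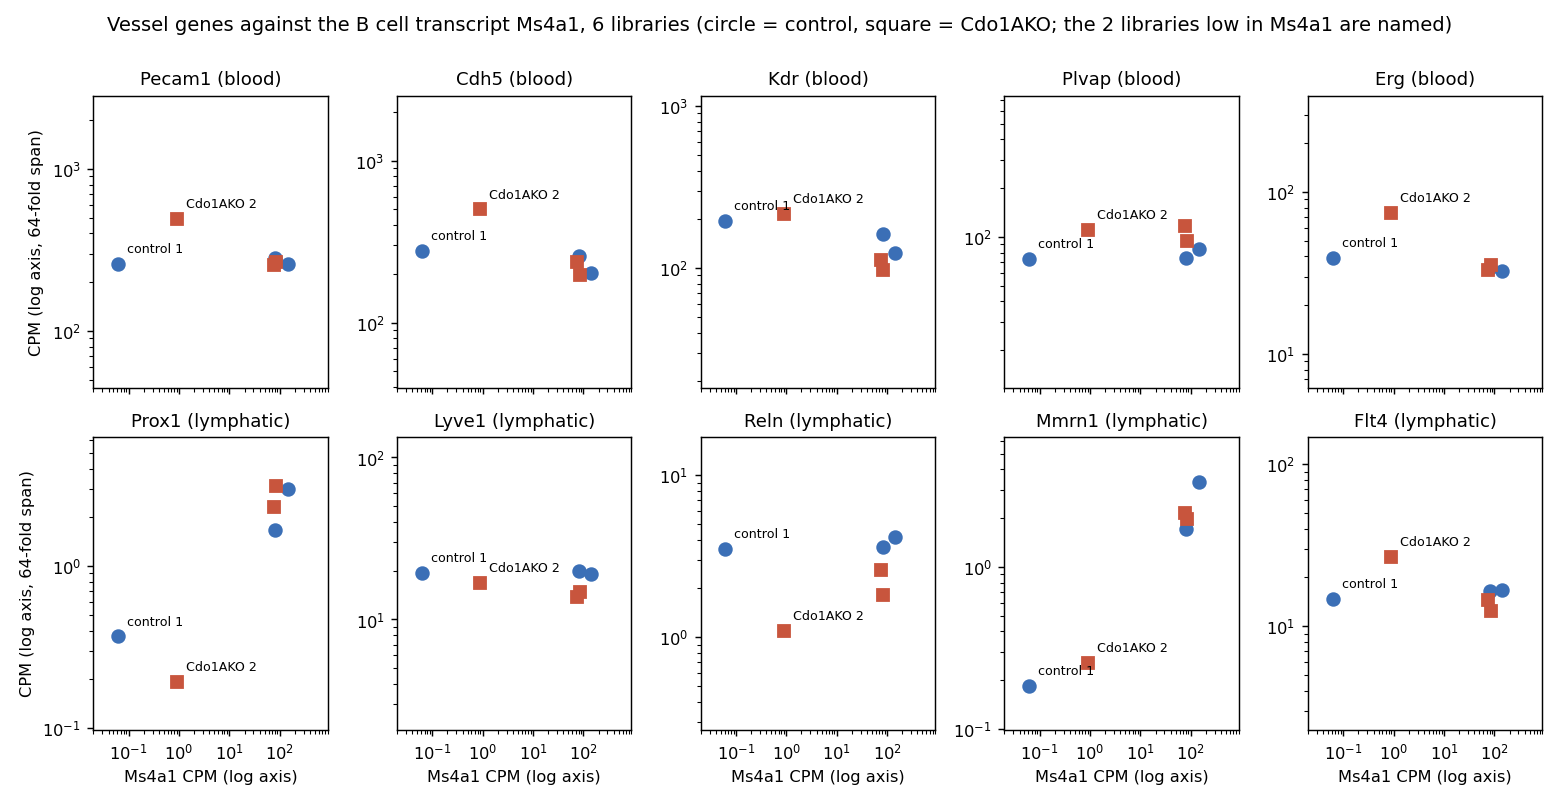
Each vessel gene against Ms4a1 in the 6 libraries, both in TMM-scaled CPM on log axes, every vertical axis spanning the same fold range. Prox1 and Mmrn1 are about 9 to 10 times higher in the 4 libraries with Ms4a1 than in the 2 named libraries, while Plvap and Lyve1 sit at like levels on both sides.

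Set side by side, the means of the libraries with Ms4a1 over those without were 8.99 for Prox1, 10.4 for Mmrn1, 1.33 for Reln, 0.937 for Lyve1 and 0.729 for Flt4. For the blood genes they were 1.01 for Plvap, 0.708 for Pecam1, 0.606 for Kdr, 0.595 for Erg and 0.577 for Cdh5. Prox1 and Mmrn1 were the 2 of the 10 that differed severalfold between these libraries. The mean log2 CPM of the lymphatic genes minus that of the blood genes was -5.61, -4.04 and -4.56 for the controls in order of number and -4.61, -6.54 and -4.55 for the Cdo1AKO libraries. The lowest values belonged to the 2 libraries low in Ms4a1. The group means were -4.74 ± 0.80 and -5.23 ± 1.13 (SD, n = 3), a difference of -0.50 that is smaller than either SD. It turned to 0.16 without Cdo1AKO 2, and was -0.15 without control 2 and -0.93 without control 1; it was -0.81 without Cdo1AKO 1 and -0.84 without Cdo1AKO 3. The median log2 fold change was 0.34 for the 5 blood genes and -0.26 for the 5 lymphatic genes, beside 0.06 over all tested genes. Without Cdo1AKO 2 the medians were -0.040 and -0.24, beside 0.012 over all tested genes. The lymphatic median turned to 0.20 without control 2 and was -0.41 without Cdo1AKO 3, and the blood median was 0.56 without Cdo1AKO 3 and -0.065 between the libraries with Ms4a1.

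**Figure D3:**
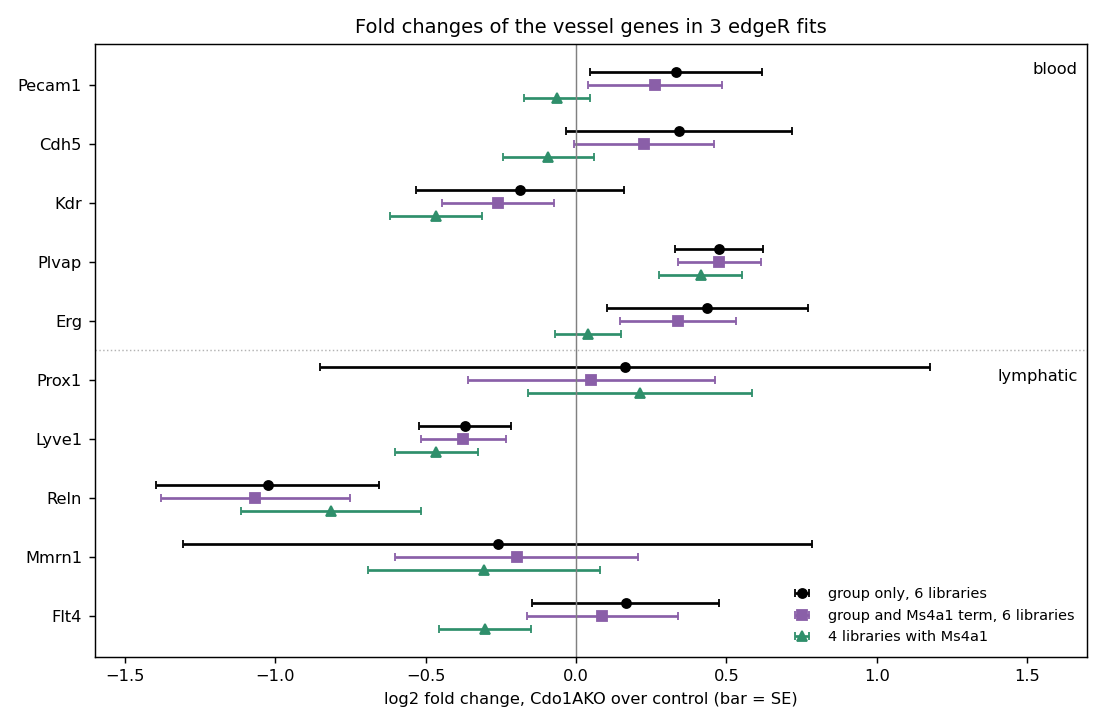
Log2 fold change of Cdo1AKO over control for each vessel gene, with its SE, in 3 edgeR fits: group only, group with an Ms4a1 term, and only the 4 libraries with Ms4a1. Plvap stays near 0.4 to 0.5 and Lyve1 near -0.4 to -0.5 in all 3, and the bars of Prox1 and Mmrn1 shorten from about 1.0 to about 0.4 with the Ms4a1 term.

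Other endothelial genes gave a wider view of the same libraries. Of 20 further pan-endothelial genes 0 passed, 16 had a positive and 4 a negative fold change, and the median was 0.12, against 56.0% positive over all tested genes. Without Cdo1AKO 2 the median was -0.26, and 15 of the 20 were highest in that library, against 31.7% of all tested genes. The angiopoietin-related receptor Tie1 had 106, 83.6 and 98.8 CPM in the controls and 89.4, 203 and 83.6 CPM in Cdo1AKO. Tek, the receptor for angiopoietins, had 40.8, 69.9 and 41.4 CPM in Cdo1AKO against 46.2 to 69.7 CPM in the controls. Both were highest in Cdo1AKO 2, Tek by little over control 1. Between the libraries with Ms4a1 3 of the 20 passed edgeR, against 15.3% of all genes, named here after their values were seen: the transcription factor Ets1, also a lymphocyte gene, was higher (0.73 ± 0.14, SE, adjusted p = 0.020), and the tight junction gene Cldn5 (-0.40 ± 0.11, SE, adjusted p = 0.0492) and the nitric oxide synthase Nos3 (-0.78 ± 0.17, SE, adjusted p = 0.0249) were lower.

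Of 10 capillary genes 0 passed, 3 had a positive and 7 a negative fold change, with a median of -0.12, or -0.42 without Cdo1AKO 2. Gpihbp1, which carries lipoprotein lipase to the capillary wall, had 332, 168 and 230 CPM in the controls and 179, 340 and 168 CPM in Cdo1AKO. In each group the library low in Ms4a1 held the highest value, as for Kdr. Car4, a carbonic anhydrase of the capillary surface, had 130, 70.4 and 97.7 CPM against 70.3, 102 and 66.0 CPM. Between the libraries with Ms4a1 the log2 fold change was -0.20 ± 0.16 for Gpihbp1 and -0.31 ± 0.16 for Car4 (SE). Without Cdo1AKO 2 it was -0.49 for Gpihbp1 and -0.54 for Car4.

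Of 10 arterial genes 0 passed, 5 had a positive and 5 a negative fold change (median 0.07, or -0.37 without Cdo1AKO 2), and 8 were highest in Cdo1AKO 2. Gja5, the gap junction protein of arterial endothelium, had 23.0 CPM in that library and 5.35 to 6.74 CPM in the other 5. Of 8 venous and activated genes 7 were tested and 0 passed, with 6 positive, 1 negative and a median of 0.39, or -0.11 without Cdo1AKO 2. Vwf, which encodes von Willebrand factor, had 70.6, 55.8 and 62.4 CPM in the controls and 63.5, 130 and 53.9 CPM in Cdo1AKO. The adhesion receptors Vcam1 (0.70 ± 0.15, SE, adjusted p = 0.0238) and Icam1 (0.77 ± 0.14, SE, adjusted p = 0.0171), named after their values were seen, were higher between libraries with Ms4a1 by edgeR, 2 of 7 genes where 15.3% of all genes passed. In the same 4 libraries the T cell genes Lck, with 70.7 and 39.6 CPM in the controls and 186 and 189 CPM in Cdo1AKO, and Tcf7, with 93.9 and 55.6 CPM against 247 and 244 CPM, moved with them. These T cell genes were chosen after their values were seen, and the part of T cells in the Vcam1, Icam1 and Ets1 values was not tested.

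Genes of tip cells and sprouting were uneven over libraries. All 7 had a positive fold change, against 56.0% of all tested genes, and 0 passed. The median was 0.69, or 0.12 without Cdo1AKO 2, the library in which 6 of the 7 were highest. Apln, the apelin ligand of sprouting endothelium, had 72.1 CPM in Cdo1AKO 2 and 7.55 to 16.5 CPM elsewhere. Angpt2, which loosens vessels ahead of remodelling, had 24.9 CPM in Cdo1AKO 2 and 6.64 to 10.6 CPM elsewhere. In the remaining 5 libraries both genes overlapped between the groups. Between the libraries with Ms4a1, 1 of the 7 passed edgeR, against 15.3% of all genes, the chemokine receptor Cxcr4, which lymphocytes also carry (0.75 ± 0.19, SE, adjusted p = 0.0394; named after its values were seen).

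**Figure D4:**
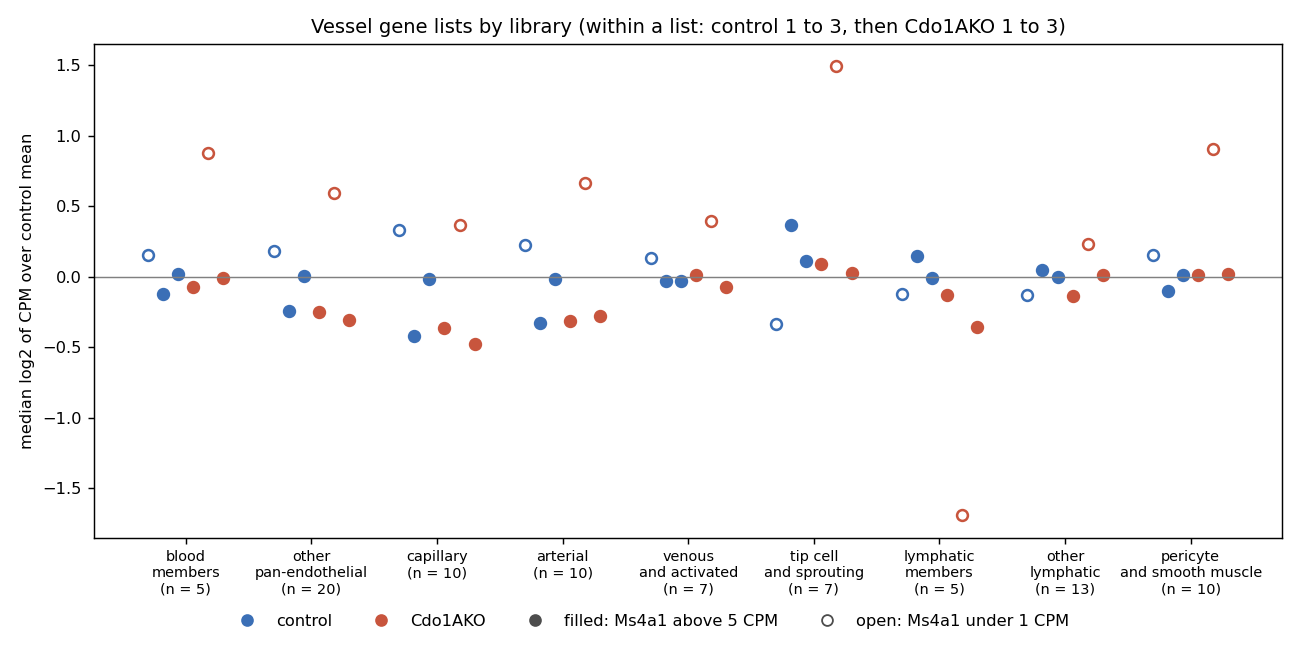
Median over the tested genes of each list of the log2 ratio of a library's CPM to the control mean (0.1 added to each CPM), 6 libraries per list. Cdo1AKO 2 is at 0.87 for the blood members and 1.49 for tip cell genes, the highest point of both, and at -1.69 for the lymphatic members, the lowest.

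Lymphatic genes beyond the 5 did not repeat the course of Prox1 as a set. Of 15 listed, 13 were tested and 0 passed, with 6 positive and 7 negative fold changes and a median of -0.01, or 0.13 without Cdo1AKO 2. Pdpn, the podoplanin of lymphatic capillaries and stromal cells, had 3.62, 4.76 and 4.18 CPM in the controls and 3.80, 7.78 and 6.2 CPM in Cdo1AKO. Nrp2, the co-receptor for VEGF-C, had 46.5, 53.3 and 52.8 CPM against 58.1, 112 and 52.4 CPM. Ccl21a, the chemokine that lymphatic endothelium and lymph node stroma use to draw lymphocytes, had 37.6 and 7.51 CPM in control 2 and 3 and 21.6 and 15.1 CPM in Cdo1AKO 1 and 3. It was at 0 counts in control 1 and Cdo1AKO 2, which allows up to 3 counts, or 0.184 and 0.193 CPM. The symbol Ccl21a names 2 rows, of which the row with more counts was used. Its near-identical gene copies make these values uncertain.

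Genes of lymph node vessels were read in the same libraries. Of 6 genes of lymph node lymphatic endothelium 0 passed, 3 were positive and 3 negative, with a median of 0.06, and none was highest in Cdo1AKO 2. Marco, a scavenger receptor of medullary sinuses and macrophages, had 0.307, 46.9 and 22.1 CPM in the controls and 49.0, 2.89 and 56.0 CPM in Cdo1AKO. Of 6 high endothelial venule genes 0 passed and all 6 had a positive fold change, against 56.0% of all tested genes. The median was 0.51, or 0.73 without Cdo1AKO 2. Glycam1, the mucin of these venules, had 0, 700 and 389 counts in the controls and 551, 0 and 637 counts in Cdo1AKO. Log2 fold changes were below their SE for Glycam1 (0.10 ± 1.91), Chst4 (0.29 ± 1.51), Fut7 (0.70 ± 1.16) and Chst2 (0.33 ± 0.47). They were above it for Ubd and Cd34, both named after their values were seen. Cd34 was at -0.11 between the libraries with Ms4a1. Prox1, Mmrn1, Ccl21a, Marco and Glycam1 were low or at 0 in the same 2 libraries. Not every gene of these lists was, as seen in genes named after their values were seen. Ackr4 was highest in control 1 (2.27 CPM), and Ubd (151 CPM) and Cd34 (197 CPM) were highest in Cdo1AKO 2. How much of the Prox1 and Mmrn1 RNA came from node and how much from fat was not tested.

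Ligands and receptors of the VEGF and angiopoietin families were read as a list of 13, of which 12 were tested and 0 passed, with 6 positive and 6 negative fold changes and a median of 0.02. Without Cdo1AKO 2 the median was -0.43. Every Cdo1AKO library lay below every control for 2 of the 12, Vegfa and Angpt1, against 9.73% of all genes, and the other 10 overlapped. Vegfa, the main angiogenic ligand, had 1247, 548 and 826 CPM in the controls and 445, 224 and 455 CPM in Cdo1AKO. The lowest library was Cdo1AKO 2, in which 4 of the 5 blood genes were highest. Vegfa had a log2 fold change of -1.22 ± 0.41 (SE, unadjusted p of 0.0231, adjusted p = 0.416 by edgeR), and -0.62 ± 0.19 between libraries with Ms4a1 (SE, adjusted p = 0.0713 by edgeR).

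Angpt1, the ligand that keeps vessels quiescent through Tek, had 39.1, 13.4 and 29.5 CPM in the controls and 9.85, 8.30 and 9.99 CPM in Cdo1AKO. The Cdo1AKO libraries lay close together, below a spread set of controls. For Angpt1 the log2 fold change was -1.54 ± 0.39 (SE, unadjusted p of 0.00676, adjusted p = 0.345 by edgeR), and -1.48 ± 0.35 with the Ms4a1 term (SE, adjusted p = 0.0627 by edgeR). Vegfb, a VEGF that signals through Flt1, had a log2 fold change of -0.40 ± 0.34 (SE, adjusted p = 0.709 by edgeR). Between the libraries with Ms4a1 it was the only one of the list to pass, at -0.59 ± 0.11 (SE, adjusted p = 0.0181 by edgeR), where 15.3% of all genes passed.

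The lymphatic ligands overlapped between the groups. Vegfc had 1.84, 4.65 and 3.27 CPM in the controls and 4.10, 6.50 and 3.95 CPM in Cdo1AKO, and Vegfd had 16, 10.2 and 12.1 CPM against 9.15, 43.4 and 6.75 CPM. Both were highest in Cdo1AKO 2, where Prox1 was lowest. Their log2 fold changes were 0.57 ± 0.41 and 0.63 ± 0.72 (SE). Of the rest of the list, fold changes were positive for Pgf (0.66 ± 0.40), Nrp2 (0.54 ± 0.31), Angpt2 (0.57 ± 0.54) and Angptl4 (0.09 ± 0.39), and negative for Flt1 (-0.35 ± 0.28), Nrp1 (-0.13 ± 0.22) and Ccbe1 (-0.05 ± 0.34), all log2 with SE.

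**Figure D5:**
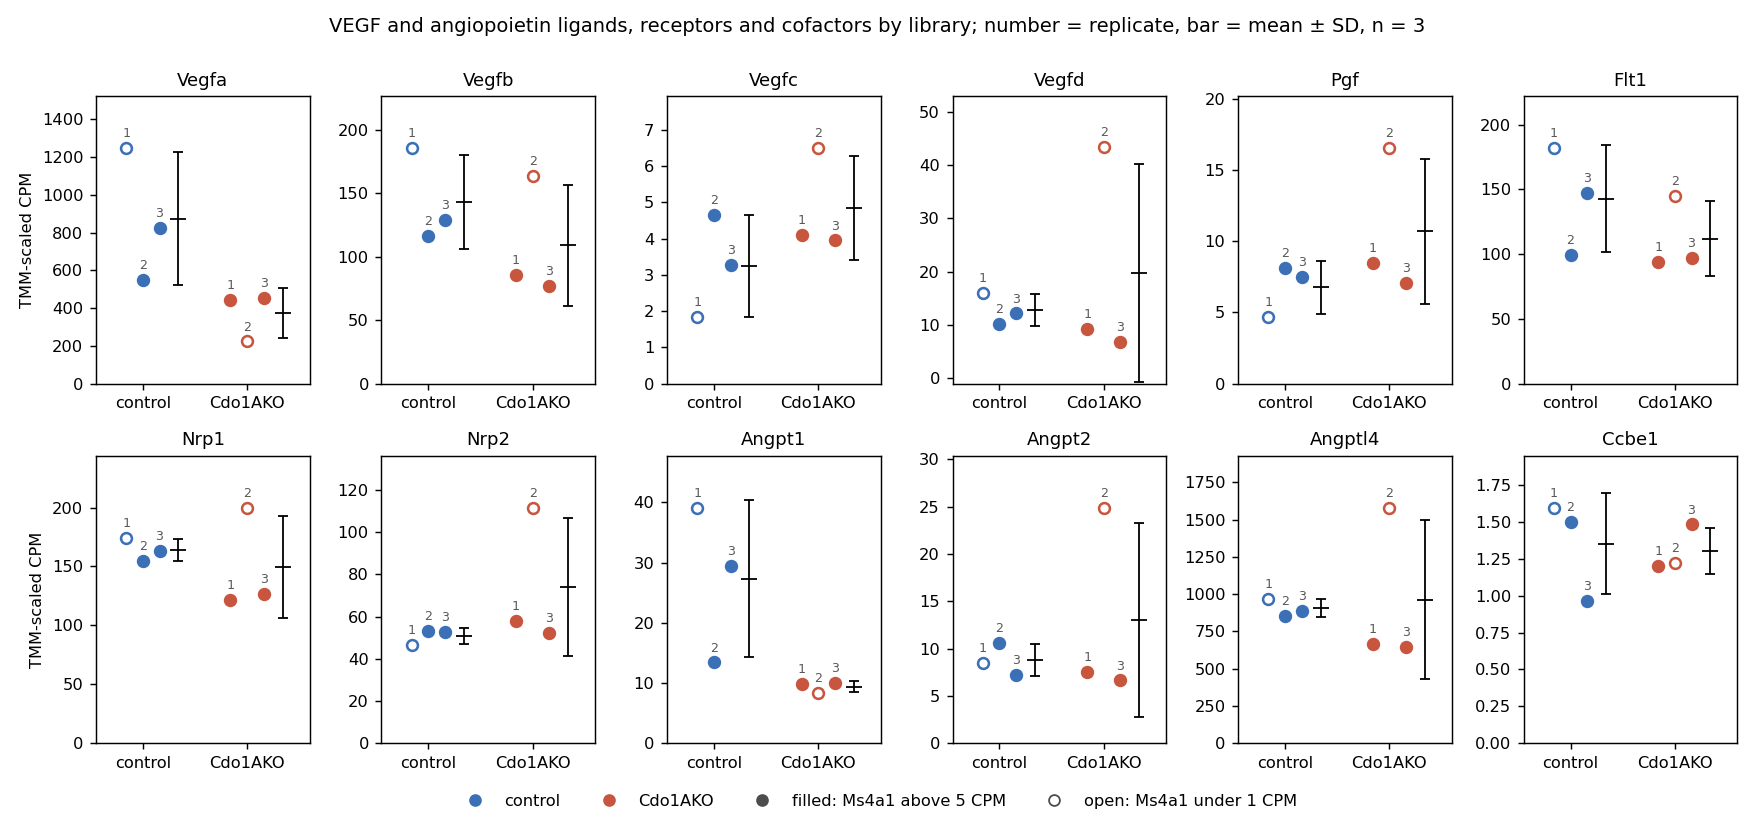
Level of the 12 tested VEGF and angiopoietin genes by library, in TMM-scaled CPM on linear axes, drawn as for the vessel genes (open points are low in Ms4a1, bars are the mean ± SD of 3 libraries). Vegfa runs from 548 to 1247 CPM in the controls and from 224 to 455 CPM in Cdo1AKO, and Angpt1 separates the groups as well.

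Mural cells and adipocytes were read beside the vessels. Of 10 pericyte and smooth muscle genes 0 passed, 8 had a positive fold change, the median was 0.39, and 8 were highest in Cdo1AKO 2; without that library the median was 0.01. Rgs5, a signalling regulator of pericytes, had 291, 174 and 232 CPM in the controls and 220, 556 and 225 CPM in Cdo1AKO. Acta2, the actin of smooth muscle, named after its values were seen, had 169, 200 and 189 CPM against 555, 481 and 529 CPM. Its groups did not overlap, and like Plvap it was highest in Cdo1AKO 1. Acta2 had a log2 fold change of 1.49 ± 0.16 (SE, adjusted p = 0.196 by edgeR), and Acta2 passed with the Ms4a1 term at 1.49 ± 0.15 (SE, adjusted p = 0.0222 by edgeR). Between the libraries with Ms4a1 2 of the 10 passed edgeR, against 15.3% of all genes, in opposite directions: Acta2 was higher (1.47 ± 0.11, SE, adjusted p = 0.00250), and Cspg4, the NG2 proteoglycan of pericytes, was lower (-1.17 ± 0.13, SE, adjusted p = 0.00467). Of 8 adipocyte genes all had a negative fold change and 0 passed, with a median of -0.55. With the Ms4a1 term 2 of the 8 passed edgeR as lower, against 4.13% of all genes in either direction. These 2 were Acvr1c and Adrb3, named after their values were seen. Between the libraries with Ms4a1 6 of the 8 passed as lower, against 15.3% of all genes in either direction. The list was chosen with earlier results of these data known, so these shares do not test it. Adipoq, which encodes the hormone adiponectin, had 3077, 2171 and 2604 CPM in the controls and 1492, 2801 and 1584 CPM in Cdo1AKO.

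The genes nearest to Cdh5 and to Prox1 in course were sought among 11191 protein-coding genes with a mean of at least 5 CPM, by the root mean square difference of centred log2 CPM over the 6 libraries. Nearest to Cdh5 were Tie1 (0.0597), Vwf (0.0611), Ndufa11 (0.0638), 2900026A02Rik (0.0649) and Pcdh1 (0.0716). Nearest to Prox1 were Trpm2 (0.140), Bach2 (0.175), Hvcn1 (0.230), Icosl (0.234) and Parvg (0.235). Tie1 and Vwf are endothelial genes, and Bach2 and Hvcn1 are known from B cells. Trpm2 had 2.95, 20.3 and 11.4 CPM in the controls and 20.3, 2.06 and 23.5 CPM in Cdo1AKO, low in the same 2 libraries as Prox1. The points of such a comparison share their libraries and scaling, and it is a description only.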

How the data were processed

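Bulk RNA sequencing covered 6 samples of inguinal fat, 3 control and 3 Cdo1AKO. What the authors deposited is a table of raw counts for every gene in every sample, per the file headers, with their own fold changes and adjusted p-values. The submitters' processing notes name the genome build mm10, DESeq2 1.20.0, featureCounts 1.5.0-p3 and HISAT2 2.0.5, with no role for any. Library preparation used NEBNext Ultra reagents, per the labels' protocols. The sources used here do not say whether counting used strand. Table coordinates equal GENCODE M21 for all 10 genes.

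Counts were tested with edgeR 4.0.16 in R 4.3.3 (TMM factors, filterByExpr by group, quasi-likelihood test with no covariate, Benjamini-Hochberg adjustment, threshold 0.05). A prior count of 2 entered log2 CPM. Alternatives were other scaling factors, no filter, DESeq2 1.42.0, limma-voom 3.58.1, a replicate block, Ms4a1 terms, and each library left out. The test was checked on simulated counts. Named by rule were the 10 genes, Cdo1, Ms4a1, Glycam1, the skeletal muscle markers and the VEGF and angiopoietin list. So were genes among the first 4 of every other list, and the 5 genes nearest to Cdh5 and to Prox1. Further genes, marked where they appear, were named after their values were seen. The members and lists were chosen with earlier results of these data known. Groups and replicate numbers were read from sample titles. The labels do not tie each sample to an animal of its own, and p-values describe the spread among these samples only, which may be technical.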

Additional observations from a re-analysis of the deposited data

How the results depend on the processing

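None of the 10 vessel genes passed the test under any of the 15 alternatives, and Plvap, Lyve1 and Reln kept their direction in all of them. These were the genes whose groups did not overlap. Leaving out libraries could therefore hardly turn their sign, and the kept direction adds no separate support. Over all genes the count past the threshold was 0 by edgeR with group only, 271 with DESeq2, 686 with the Ms4a1 term, 49 with Ms4a1 as a continuous term and 2617 between the 4 libraries with Ms4a1, and 0 under the other alternatives. The log2 fold change of Prox1 was -0.051 with limma-voom and that of Mmrn1 0.012 with limma-voom and 0.039 with the replicate block. Between the libraries with Ms4a1 it was -0.065 for Pecam1, -0.092 for Cdh5 and -0.30 for Flt4. With single libraries left out, log2 fold changes ran from -0.41 to 0.87 for Prox1, -0.79 to 0.61 for Mmrn1, -0.040 to 0.50 for Pecam1, -0.18 to 0.59 for Cdh5, -0.037 to 0.64 for Erg, -0.24 to 0.37 for Flt4 and -0.62 to 0.026 for Kdr. The low end of Pecam1, Cdh5, Erg, Flt4 and Kdr was the value without Cdo1AKO 2, a setting in which only a control was low in Ms4a1. The lymphatic median was 0.039 with the replicate block and -0.051 with limma-voom. The cause was not tested. The count of vessel genes whose groups do not overlap was 3, and 5 with library totals, between the libraries with Ms4a1, or without Cdo1AKO 2, beside 18.6% of all genes, and 19.7%, 62.0% and 55.0% in these settings; this count and all its settings were chosen after seeing the data. Nothing in the labels says that the numbers pair the samples, so they were not taken to. Over genes, the deviations of samples with the same number correlated at -0.66, -0.67 and 0.45 for numbers 1 to 3. Those of control 1 and Cdo1AKO 2, both low in Ms4a1, correlated at 0.71, so these signs cannot decide on pairing. The replicate block called 0 genes by edgeR, with a smallest adjusted p of 0.896. Prox1 and Mmrn1, with 3 to 63 counts per library, are limited by depth as well as by the spread between libraries.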
